A study of Xenopus tropicalis with 52 samples.

Results

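The 8 Sox genes described here are sox1, sox2, sox3, sox21, sox4, sox11, sox7 and sox18. They were taken by name from an RNA-seq time course of *Xenopus tropicalis* embryos, whose 2 count tables each hold 1 row per gene. They are 8 of 21750 genes in the table of Series 1 and 2, and 8 of 20193 genes in the table of Series 3. In each table, 18 rows carry a Sox name.

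The course covers 52 whole-embryo libraries from fertilisation to gastrulation, timed in hours post fertilisation (hpf), and the labels name no treatment or genotype. Series 2 has 17 libraries of polyadenylated (polyA+) RNA at 15 time points between 2.5 and 9.5 hpf, and Series 1 has 7 polyA+ libraries between 0.0 and 3.0 hpf. Series 3 has 19 polyA+ libraries between 0.0 and 9.0 hpf and 9 hourly Ribo-Zero libraries up to 8.0 hpf, made from the same RNA after depletion of ribosomal RNA. Each series is 1 fertilisation of a different female, each library is a pool of embryos, and Series 3 also differs in frog colony, pool size, kit and sequencer, so that these cannot be told apart in any difference between series.

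Sox proteins bind DNA through a high-mobility-group box. The SoxB1 group (sox1, sox2 and sox3) maintains progenitors of the ectoderm and nervous system, and sox21, of the SoxB2 group, is a repressor that opposes it. The SoxC genes sox4 and sox11 act in neuronal differentiation, and the SoxF genes sox7 and sox18 act in endoderm and blood vessels. In *Xenopus laevis*, maternal Sox3 protein represses nodal genes in the blastula and Sox7 protein activates them. The early embryo lives on maternal mRNA until its own genome is switched on around the mid-blastula transition. A polyA+ library responds to the length of an mRNA's tail as well as to its amount, whereas a Ribo-Zero library does not select for a tail.

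Values are normalised reads, the count of a gene divided by the library total without ribosomal reads and multiplied by 25000000. Libraries of Series 1 and 2 had totals of 19925593 to 33907947 counts, and those of Series 3 had 4539916 to 17998536, so 1 count was worth at most 1.34 normalised reads in the first and at most 6.48 in the second. The 5 gastrula markers t, gsc, chrd, mixer and ventx1.1 fitted the time labels of Series 2, with a sum of 14748 normalised reads in its last library, against 0.814 in its first. The sum of 6 maternal transcripts of the egg (gdf1, vegt, nanos1, dazl, ddx25 and wnt11b) did not separate late from early libraries. It was 39970 in the last library of Series 2 and 26213 in its first. Markers of ovarian follicle cells and of blood summed to at most 45.4 and 42.6 normalised reads in any library. Nearly every time point has a single library, and the tests below compare windows of neighbouring time points. Their p-values therefore measure a difference against the spread between neighbouring time points, and in whole embryos fewer cells of a type and less RNA per cell cannot be told apart.

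**Figure D1:**
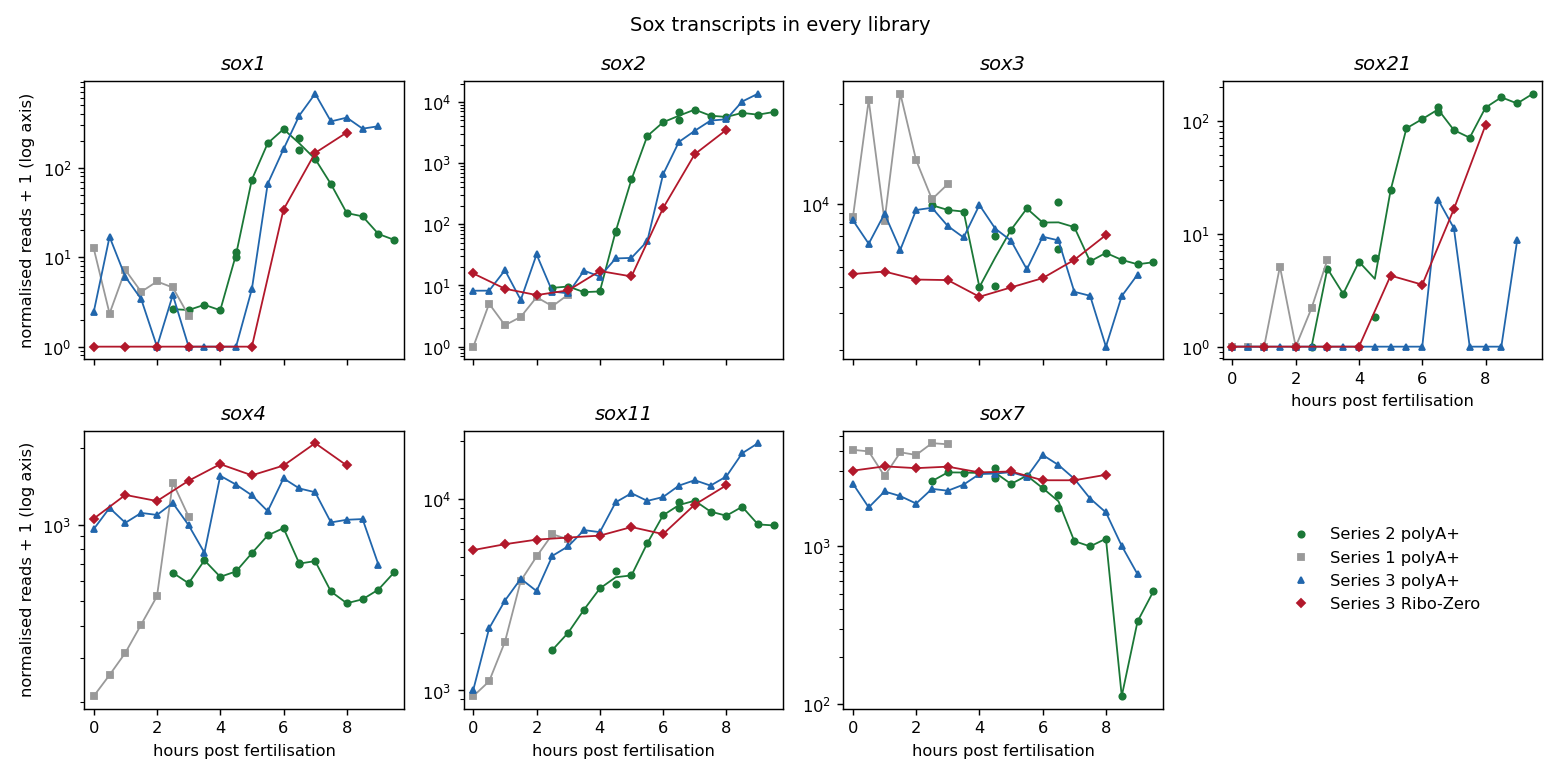
Normalised reads plus 1 (log axis) against hours post fertilisation for 7 Sox genes, 1 point per library and lines through the mean at each time. The vertical scale differs between genes. Transcripts of sox2, sox1 and sox21 start near 1 to 10, whereas sox3, sox4, sox11 and sox7 are present from 0.0 hpf. The eighth gene, sox18, had at most 1 count in any library and is not drawn.

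Of the 8 members, 4 were present from fertilisation. At 0.0 hpf of Series 3, polyA+ libraries held 8335 normalised reads of sox3, 2494 of sox7, 1008 of sox11 and 959 of sox4. Ribo-Zero reads at the same time were 4604 for sox3, 3016 for sox7, 5412 for sox11 and 1054 for sox4. The other members had at most 14.7 normalised reads in any library of that time, the highest being sox2 in Ribo-Zero RNA. Levels of different genes are not compared here, because the values are not corrected for transcript length.

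Late and early libraries were compared within each series by edgeR's quasi-likelihood test with Benjamini-Hochberg adjustment over all genes tested, and a change was called at an adjusted p under 0.05. In Series 2 (8.0 to 9.5 hpf against 2.5 to 4.0 hpf, 4 libraries each) 7 of the 8 members passed the filter on low counts, of which 4 rose (sox2, sox21, sox1 and sox11) and 1 fell (sox7). Over all genes tested, 36.8% were called higher and 35.2% lower, so a call is common in this comparison and the size of the change tells the members apart. In polyA+ libraries of Series 3 (7.5 to 9.0 hpf against 2.5 to 4.0 hpf, 4 each) 6 members passed the filter, with sox2, sox1 and sox11 higher and sox3 and sox7 lower, against 30.3% and 27% of all genes. In Ribo-Zero libraries (6.0, 7.0 and 8.0 hpf against 2.0, 3.0 and 4.0 hpf) 0 of 6 members were called by edgeR, where 0.616% and 0.139% of all genes were. In that comparison 5 of the 6 members had an unadjusted p under 0.05, as had 3038 of 11520 genes. DESeq2 called 4 members, beside 1041 of the 11520 genes. Without the 6.0 hpf library edgeR called 5 of the members, beside 2055 genes higher and 1435 lower of 11758. Without the 8.0 hpf library it called sox2 alone, beside 146 genes higher and 58 lower of 11737. The same hours of polyA+ RNA gave 3 members higher and 1 lower, against 10.4% and 7.26% of all genes, but no member was called there without the 2.0, 3.0, 4.0 or 7.0 hpf library. Median log2 changes of the members tested were 1.96 in Series 2, 0.73 in polyA+ and 0.61 in Ribo-Zero libraries of Series 3, beside 0.03, 0.04 and -0.01 over all genes. The Ribo-Zero median stays 0.61 with sox1 at the lower bound of its change. The filter asked for at least 10 counts in as many libraries as the smaller group. In Series 2 sox1 and sox21 had fewer counts than that in every early library. So had sox1 and sox2 in the polyA+ and Ribo-Zero windows of Series 3. These genes passed only through late libraries, so the filter fixed their direction, though not the size of their change, and the medians include them.

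**Figure D2:**
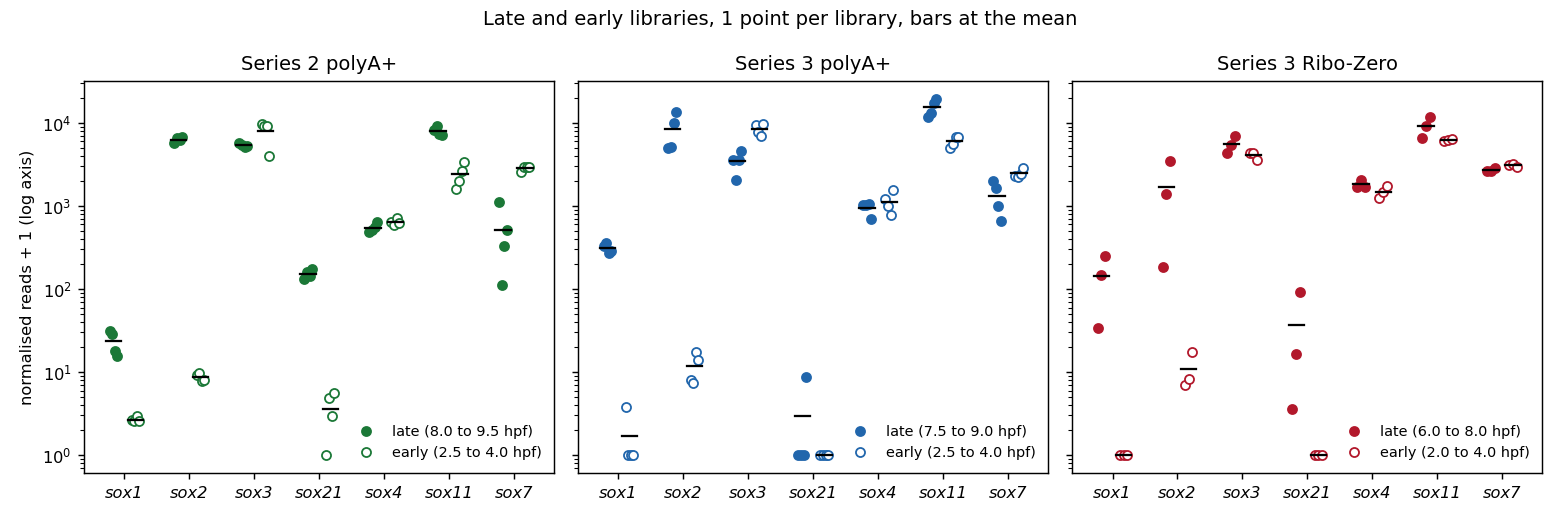
Normalised reads plus 1 (log axis) of 7 Sox genes in late (filled, left) and early (open, right) libraries, 1 point per library with bars at the mean. Late and early points are apart for sox2, sox1, sox11 and sox7 in all 3 panels, and for sox3 in both panels of Series 3. Those of sox21 are apart in Series 2 and, on few counts, in Ribo-Zero libraries. They overlap for sox4 in all 3 panels, for sox3 in Series 2 and for sox21 in polyA+ libraries of Series 3.

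In polyA+ RNA of both Series 2 and Series 3 sox2, a marker of the neural plate, rose. Its late libraries of Series 2 held 5680.5, 6617, 6189 and 6850 normalised reads, against 8.14, 8.62, 6.78 and 6.98 in the early libraries. All late values lay far above all early ones, and late and early ranges were likewise apart for 5 of the 7 members tested, against 65.9% of all genes, with a log2 change of 9.90 ± 0.22 (SE, n = 4 each, edgeR adjusted p = 4.2e-09). In polyA+ libraries of Series 3 sox2 held 4956, 5205, 10151 and 13642 normalised reads late, against 6.95, 6.45, 16.5 and 12.998 early. Again no value overlapped, as for 5 of the 6 members tested there and 53% of all genes, and the log2 change was 9.84 ± 0.61 (edgeR adjusted p = 7.6e-10). In Ribo-Zero libraries it held 183, 1396 and 3495 normalised reads late, against 5.97, 7.32 and 16.2 early. Those groups do not overlap either, as for 5 of the 6 members tested and 36.1% of all genes, but the change of 7.52 ± 2.04 did not pass (edgeR adjusted p = 0.0535).

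The climb of sox2 in Series 2 began between 4.0 and 4.5 hpf. It had 6.98 normalised reads at 4.0 hpf, 76.4 and 74.1 in the 2 libraries of 4.5 hpf, 539 at 5.0 hpf, 2768 at 5.5 hpf and 4656 at 6.0 hpf. Its highest value was 7492 at 7.0 hpf, and from 7.5 hpf on it stayed between 5680.5 and 6850. Series 3 reached no such plateau, since its last library, at 9.0 hpf, was its highest. The Ribo-Zero level at 6.0 hpf, 183 normalised reads, compares with 656 in polyA+ RNA of the same embryos, and at 8.0 hpf the values were 5205 in polyA+ and 3495 in Ribo-Zero libraries.

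Transcripts of sox1, another gene of the neural plate, were highest midway through Series 2. They stood at 1.55 normalised reads at 4.0 hpf, 72.7 at 5.0 hpf, 269 at 6.0 hpf, 124 at 7.0 hpf, 30.1 at 8.0 hpf and 14.6 at 9.5 hpf. The last value is 18.4-fold below the peak, yet above each early value. Late libraries held 30.1, 27.6, 17.2 and 14.6 normalised reads, against 1.63, 1.57, 1.94 and 1.55 in early libraries, where 8 counts were seen in all. The log2 change was 3.85 ± 0.43 (edgeR adjusted p = 8.1e-06).

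In Series 3 the sox1 peak was 671 normalised reads at 7.0 hpf, and 289.7 remained at 9.0 hpf. Late polyA+ libraries held 328, 362, 272 and 289.7 normalised reads, against 2.78, 0, 0 and 0 in early libraries. With only 2 early counts the ratio of the pooled windows was 256, with a 95% counting interval of 70.1 to 2123, and edgeR called the rise (log2 change 7.78 ± 1.01, adjusted p = 1.4e-07). Ribo-Zero libraries had no sox1 count from 0.0 to 5.0 hpf and 33.1, 145 and 246 normalised reads at 6.0, 7.0 and 8.0 hpf. Set against the 3 counts that 0 counts over the early libraries allow, this was at least 30.4-fold higher (edgeR adjusted p = 0.0782 for the fitted change).

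The SoxB2 gene sox21 was seen in Series 2 and hardly at all in polyA+ RNA of Series 3. Its late libraries of Series 2 held 130.2, 161, 142 and 173 normalised reads, against 0, 3.92, 1.94 and 4.65 in early libraries, a log2 change of 6.01 ± 0.55 (edgeR adjusted p = 3.6e-06). In between it had 103 normalised reads at 6.0 hpf and a lower 70.0 at 7.5 hpf. In Series 3, 16 of 19 polyA+ libraries had no count, and the other 3 had 8, 3 and 2 counts. Ribo-Zero libraries had 1, 1, 3 and 14 counts at 5.0, 6.0, 7.0 and 8.0 hpf. The last is 90.8 normalised reads, with a 95% counting interval of 49.6 to 152. The polyA+ library of 8.0 hpf had 0 counts, which allows up to 15.97 normalised reads, below that interval. The gene did not pass the filter on low counts of any Series 3 test, so this difference rests on 1 pair of libraries.

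The maternal SoxB1 gene sox3 fell in polyA+ RNA of Series 3, and its Ribo-Zero values ran the other way. At 7.5 to 9.0 hpf polyA+ libraries of Series 3 held 3619.6, 2065, 3609.5 and 4577 normalised reads, against 9564, 7817, 6890.4 and 9862 in early libraries. The groups did not overlap and the log2 change was -1.14 ± 0.19 (edgeR adjusted p = 1.7e-04). At the hours shared with Ribo-Zero RNA, polyA+ libraries held 6948, 3783 and 2065 normalised reads at 6.0, 7.0 and 8.0 hpf, against 9331, 7817 and 9862 at 2.0, 3.0 and 4.0 hpf (log2 change -1.12 ± 0.30, edgeR adjusted p = 0.0409). That call was lost with library totals or an earlier late window (edgeR adjusted p up to 0.0939). It was also lost without any 1 library other than that of 6.0 hpf (up to 0.156), while the log2 change stayed between -1.47 and -0.83. Ribo-Zero libraries of the shared hours held 4399, 5382 and 7080 normalised reads late, against 4331, 4306 and 3581 early. All late values were above all early ones, with a log2 change of 0.56 ± 0.18 that did not pass (edgeR adjusted p = 0.123).

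In Series 2, late sox3 levels of 5814, 5381, 5126 and 5243 normalised reads stood against 9836, 9336, 9171 and 3987 in early libraries. The low early value is that of 4.0 hpf, which puts the early range across the late one, and the log2 change of -0.39 ± 0.27 did not pass (edgeR adjusted p = 0.218). Without the 4.0 hpf library the change was -0.64, with an adjusted p of 0.00085. After 4.0 hpf sox3 was back at 9488 normalised reads at 5.5 hpf and 7724 at 7.0 hpf.

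Values of sox3 differed between libraries of 1 time point more than those of the other maternal members. At 4.5 hpf the 2 libraries of Series 2 held 4020.2 and 7023 normalised reads, a ratio of 1.75, and at 6.5 hpf 6080.2 and 10201, a ratio of 1.68. Over all genes with at least 20 counts in the pair the median ratio was 1.15 at 4.5 hpf and 1.17 at 6.5 hpf, and 7.64% and 8.93% of genes differed by as much as sox3. The pairs differed by 1.03 and 1.01 for sox4, 1.17 and 1.07 for sox11, and 1.15 and 1.199 for sox7. In Series 1, sox3 swung between 8611, 31386, 8272, 33679, 16149, 10508 and 12419 normalised reads from 0.0 to 3.0 hpf. The libraries of 0.5 and 1.5 hpf both stood above all the others, as they did for 557 of the 9130 genes that average at least 100 normalised reads (6.10%). In polyA+ RNA of Series 3 the libraries of 0.5 and 1.5 hpf, with 6428 and 6022 normalised reads of sox3, were instead the lowest from 0.0 to 3.0 hpf, where the others held 7817 to 9564. Ribo-Zero RNA was not sampled at 0.5 or 1.5 hpf, and its values at 0.0 to 3.0 hpf lay between 4306 and 4732.5.

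Of the SoxC genes, sox11 was maternal and rose further. Late libraries of Series 2 held 8182, 9110, 7369 and 7278 normalised reads, against 1627, 2002, 2643 and 3409 in early libraries, which were themselves rising. The log2 change was 1.96 ± 0.20 (edgeR adjusted p = 1.3e-05). In Series 3, late polyA+ libraries held 11752, 13124, 17342 and 19582 normalised reads, against 5049.7, 5664, 6880.5 and 6713 early, a log2 change of 1.53 ± 0.17 (edgeR adjusted p = 4.7e-06). Ribo-Zero libraries held 6558, 9348 and 11794 normalised reads late, against 6137, 6292 and 6439 early. There the late values again lay above the early ones, by a log2 change of 0.66 ± 0.20 that did not pass (edgeR adjusted p = 0.114).

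No change of sox4 was called between late and early libraries in any of these sets. It held 489.7, 507.5, 554 and 648 normalised reads late in Series 2, against 645, 587, 722 and 622 early, with a fitted log2 change of 0.00 ± 0.19 (edgeR adjusted p = 0.995). The highest value in between was 968 at 6.0 hpf. Late polyA+ libraries of Series 3 held 1018, 1043, 1049.5 and 695 normalised reads, against 1214, 993, 774 and 1553 early (log2 change -0.07 ± 0.22, edgeR adjusted p = 0.799). Ribo-Zero levels were 1704, 2086.5 and 1705 late, against 1236, 1485 and 1726 early, a change of 0.40 ± 0.15 on the log2 scale (edgeR adjusted p = 0.144).

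The SoxF gene sox7 was maternal and fell. Late libraries of Series 2 held 1116.5, 111, 334 and 518 normalised reads, against 2588, 2941, 2934 and 2915 in early libraries, and no late value reached any early one. Its log2 change was -2.28 ± 0.48 (edgeR adjusted p = 0.00196), and leaving out any 1 library moved it between -2.81 and -1.94, past the threshold each time. The level had held between 2338 and 3130 normalised reads from 2.5 to 6.0 hpf and was 1078 at 7.0 hpf. In Series 3, late polyA+ libraries held 2008, 1639, 1005 and 664 normalised reads, against 2312, 2250.0, 2460.4 and 2869 early (log2 change -0.72 ± 0.26, edgeR adjusted p = 0.0270). That call was lost without the 3.5, 4.0 or 8.5 hpf library (adjusted p up to 0.0814) and with the late window moved to 7.0 to 8.5 hpf (adjusted p = 0.250). The level there peaked at 3792 normalised reads at 6.0 hpf. Ribo-Zero libraries held 2622, 2621 and 2840 late, against 3128, 3197 and 2940 early, a log2 change of -0.10 ± 0.08 (edgeR adjusted p = 0.461). At those same hours polyA+ libraries held 3792, 2680 and 1639 normalised reads late, against 1866, 2250 and 2869 early. That log2 change was 0.21 ± 0.25 (edgeR adjusted p = 0.548), so no fall of sox7 was called in either library type at the shared hours. In Ribo-Zero libraries all late values still lay below all early ones, where the windows of 36.1% of all genes did not overlap.

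The other SoxF gene, sox18, was at the limit of detection. It had 4 counts over the 17 libraries of Series 2, each in a library of its own, 1 count over 9 Ribo-Zero libraries and none in the other sets, where 0 counts in a library allow at most 16.7 normalised reads. No test could be made of it.

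**Figure D3:**
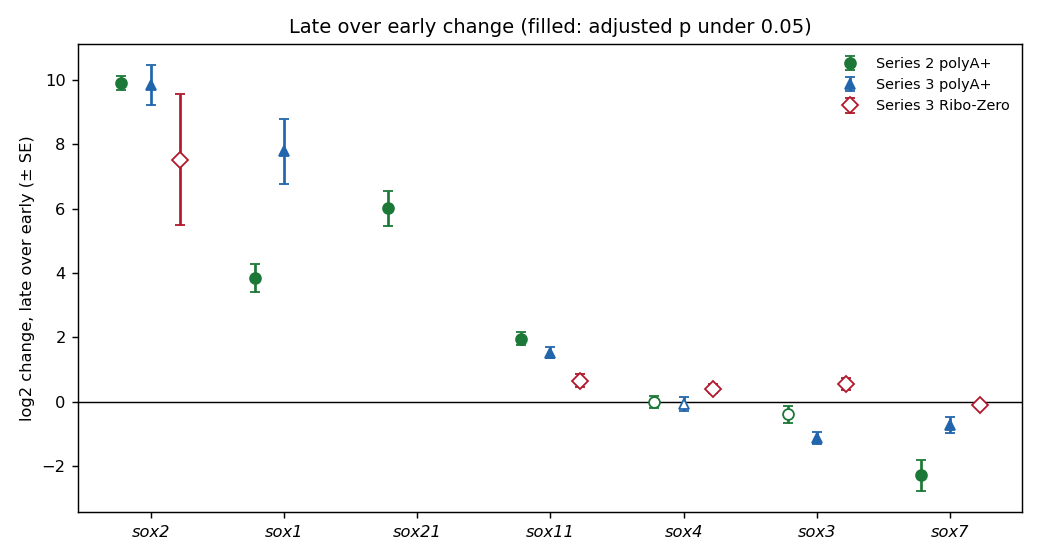
Fitted log2 change from early to late libraries (± SE) for each Sox gene in Series 2, in polyA+ and in Ribo-Zero libraries of Series 3, with filled symbols for an edgeR adjusted p under 0.05. The Ribo-Zero change of sox1 has no finite SE and is not drawn, and sox21 was tested in Series 2 alone. Values of sox3 lie below 0 in both polyA+ sets and above 0 in Ribo-Zero libraries.

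PolyA+ and Ribo-Zero libraries of Series 3 were then compared at the same hours, which shows whether a transcript is represented differently when a tail is required. The change from 2.0 to 4.0 hpf to 6.0 to 8.0 hpf was called different between library types for sox3 alone of the 6 members tested, against 9.17% of all genes higher and 6.18% lower in polyA+ RNA. The difference of its log2 changes was -1.64 ± 0.37 (edgeR adjusted p = 0.0192), and -1.68 with the time point as a block (adjusted p = 0.0253). This call did not survive scaling to library totals (adjusted p = 0.0617) or leaving out 1 of 6 of the 12 libraries (7.0 hpf of polyA+, or 2.0, 3.0, 4.0, 7.0 or 8.0 hpf of Ribo-Zero RNA), with adjusted p up to 0.0591, although its log2 difference stayed between -2.21 and -1.38. For sox11 the difference was 0.68 ± 0.39 (edgeR adjusted p = 0.242), for sox7 0.36 ± 0.25 (0.349), and for sox4 -0.22 ± 0.26 (0.589). That of sox2 was 0.05 ± 2.07, in this fit without the block an SE too wide to tell a difference of any moderate size. With the time point as a block it was 0.33 (edgeR adjusted p = 0.823). For sox1 the difference was 2.18, with no finite SE and no call.

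Hour by hour, the ratio of polyA+ to Ribo-Zero reads of sox3 was 1.81, 1.89, 2.15, 1.82 and 2.75 from 0.0 to 4.0 hpf. It then stood at 1.67, 1.58, 0.703 and 0.292 from 5.0 to 8.0 hpf. The median ratio over all genes with at least 10 counts in both libraries moved far less, between 0.507 and 0.840. The rank of sox3 among those genes went from the 81.9th percentile at 0.0 hpf through the 88.6th at 4.0 hpf to the 22.3rd at 8.0 hpf. Ratios of sox2 and sox1 could be formed from 6.0 hpf on, and were 3.58, 2.41 and 1.49 for sox2 and 4.85, 4.62 and 1.47 for sox1 at 6.0, 7.0 and 8.0 hpf.

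**Figure D4:**
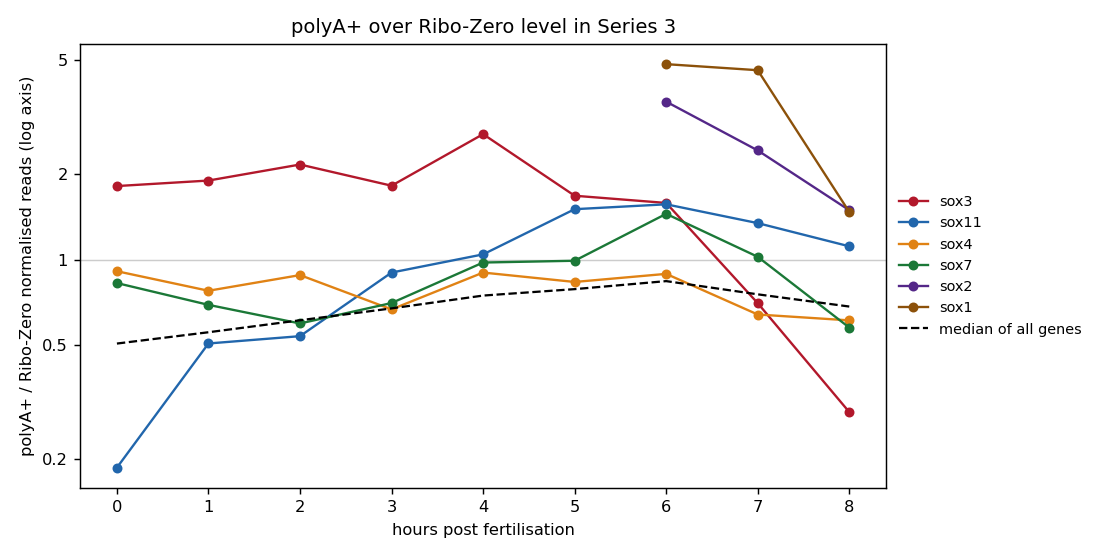
Ratio of polyA+ to Ribo-Zero normalised reads (log axis) at each whole hour of Series 3, for 6 Sox genes with at least 10 counts in both libraries, and the median over all genes (dashed). The sox3 line lies at 1.58 or more up to 6.0 hpf and at 0.292 at 8.0 hpf, and the sox11 line climbs from 0.186 at 0.0 hpf to 1.56 at 6.0 hpf.

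Levels were tested with 4 libraries of each type, at the whole hours of 0 to 3 and of 5 to 8 hpf. The scaling matters here, since with library totals in place of TMM factors the median log2 difference over all genes moved by -0.83 in the early and -0.57 in the late window. In the early window 2 of 4 members tested were called higher in polyA+ RNA, against 33.5% of all genes higher and 37.3% lower. Reads of sox3 were 8335, 8958, 9331 and 7817 in polyA+ libraries, against 4604, 4732.5, 4331 and 4306 in Ribo-Zero libraries. The log2 difference of sox3 was 1.78 ± 0.13 (edgeR adjusted p = 6.0e-06), and with library totals it was 0.94 and still called. The other call, for sox4, was 0.51 ± 0.17 (adjusted p = 0.0219), but it was lost with the time-point block (adjusted p = 0.0621) and without the Ribo-Zero library of 0.0, 1.0 or 2.0 hpf (up to 0.0712), and library totals turned it to -0.32. For sox7 the difference was 0.34 ± 0.16 (adjusted p = 0.0857) and, with library totals, -0.51 (adjusted p = 0.00766).

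In the window from 5 to 8 hpf, sox11 and sox7 were called higher in polyA+ RNA, 2 of 6 members against 32.5% of all genes higher and 33.5% lower. For sox11 polyA+ libraries held 10724, 10245, 12545 and 13124 normalised reads, against 7139.9, 6558, 9348 and 11794 in Ribo-Zero libraries (log2 difference 1.03 ± 0.25, edgeR adjusted p = 0.00603). With library totals this was 0.42 and not called (adjusted p = 0.0948). The sox7 difference of 0.53 ± 0.15 (adjusted p = 0.0126) was 0.00 with library totals. With the time point as a block, 4 members were called, beside 3881 genes higher and 4022 lower of 11382. Called in addition were sox2 (1.80, adjusted p = 7.9e-05) and sox1 (2.28, adjusted p = 0.00178), both higher in polyA+ RNA at each hour that had 10 counts.

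From 0.0 to 3.0 hpf, sox11 rose in polyA+ RNA of both clutches, and no rise was called in Ribo-Zero RNA. Series 1 gave 933, 1116, 1795.5, 3736.5, 5009, 6548 and 6157 normalised reads at 0.5 h steps from 0.0 to 3.0 hpf. Series 3 gave 1008, 2111, 2947, 3833, 3304, 5049.7 and 5664 in polyA+ libraries. Ribo-Zero libraries held 5412, 5807, 6137 and 6292 at 0.0, 1.0, 2.0 and 3.0 hpf. Slopes of log2 level on time were 0.84 ± 0.11 per hour in Series 1 (edgeR adjusted p = 2.3e-04) and 0.57 ± 0.13 in polyA+ RNA of Series 3 (adjusted p = 0.0131), where the call was lost without the 3.0 hpf library (adjusted p = 0.0510). In Ribo-Zero RNA the slope was 0.08 ± 0.03 (adjusted p = 0.157). The difference between library types over whole hours, 0.56 ± 0.18 per hour, did not pass (edgeR adjusted p = 0.0752, and 0.0995 with the time-point block), where 9.5% of all genes were called higher and 8.27% lower. It was 0.63 with an adjusted p of 4.3e-05 without the polyA+ library of 1.0 hpf, and as low as 0.24 without that of 0.0 hpf.

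**Figure D5:**
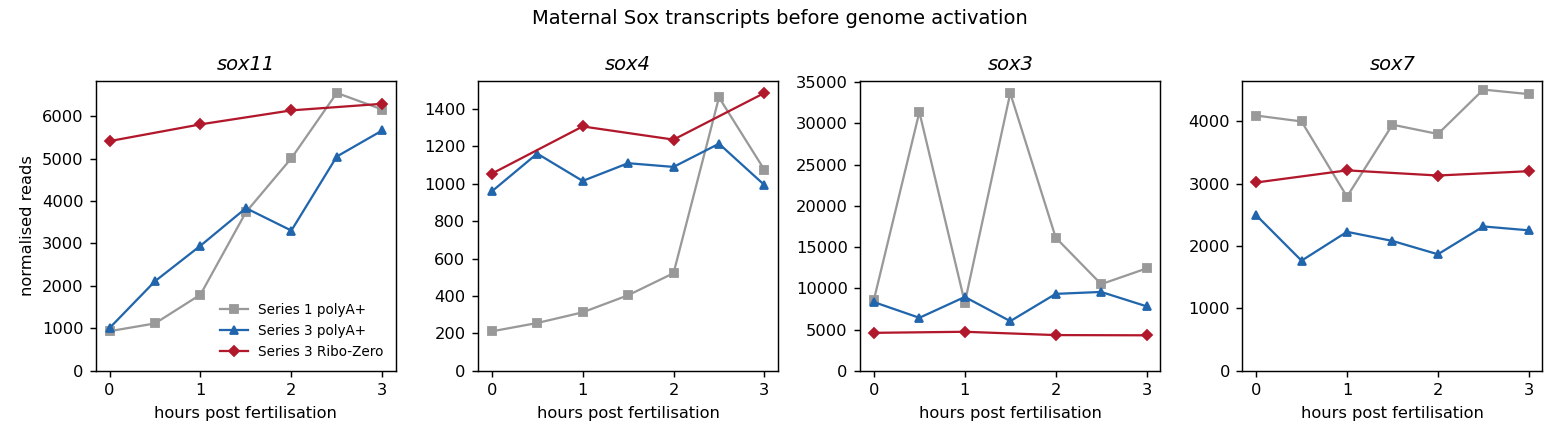
Normalised reads against hours post fertilisation from 0.0 to 3.0 hpf for the 4 maternal Sox genes, in Series 1 polyA+, Series 3 polyA+ and Series 3 Ribo-Zero libraries. Vertical axes start at 0 and differ between genes. Points of sox11 climb from 933 and 1008 in the polyA+ sets and begin at 5412 in Ribo-Zero RNA, which was sampled at whole hours. The sox3 points of 0.5 and 1.5 hpf are the highest in Series 1 and the lowest in polyA+ RNA of Series 3.

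For sox4 a rise was called in Series 1 alone. It had 211, 255, 312, 404, 522, 1461 and 1074 normalised reads there from 0.0 to 3.0 hpf, a slope of 0.72 ± 0.13 per hour on the log2 scale (edgeR adjusted p = 0.00106). In polyA+ RNA of Series 3 it stayed between 959 and 1214 normalised reads (slope -0.10 ± 0.08, adjusted p = 0.401), and Ribo-Zero levels were 1054, 1306, 1236 and 1485 (slope 0.15 ± 0.05, adjusted p = 0.0780). The difference between these clutches was not tested. In Series 1, 2 of 4 members tested rose over these hours, against 31.9% of all genes higher and 29.9% lower. In polyA+ RNA of Series 3 only sox11 was called, against 17.4% of genes higher and 17% lower. In Ribo-Zero RNA 0 of 4 were called by edgeR (2.76% and 2.22% of genes) or by DESeq2 (256 of 11720 genes). Of the 4, 2 had an unadjusted p under 0.05, as had 2140 of 11720 genes. Without the 1.0 hpf library sox4 and sox11 were called, beside 1041 genes higher and 883 lower of 11873. Slopes of sox3 were -0.45 ± 0.27 in Series 1 (adjusted p = 0.233), 0.02 without its 0.5 and 1.5 hpf libraries, -0.05 ± 0.07 in polyA+ and -0.03 ± 0.03 in Ribo-Zero RNA of Series 3. Those of sox7 were -0.16 ± 0.09, -0.12 ± 0.07 and 0.03 ± 0.04 in the same sets, and none was called. A fall was called in Series 1 for sox3 without the 0.0 hpf library (-0.78, edgeR adjusted p = 0.0270) and for sox7 without the 1.0 hpf library (-0.19, adjusted p = 0.0460).

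Series 1 and 2 share the times of 2.5 and 3.0 hpf. There sox11 had 1627 and 2002 normalised reads (Series 2), against 6548 and 6157 (Series 1), and sox4 had 645 and 587, against 1461 and 1074. The levels of sox3 were 9836 and 9336 in Series 2, against 10508 and 12419 in Series 1, and those of sox7 2588 and 2941 in Series 2, against 4504 and 4432.

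Onsets of rising levels were found with the run rule of the study, which asks for at least 3 successive points, each above the one before by more than a chance step, and for a rise of at least 10-fold after 10 normalised reads are added. As applied here, the rule found an onset for sox2 alone in Series 2 (4.0 hpf, 275-fold up to 6.0 hpf) and in polyA+ RNA of Series 3 (5.5 hpf, 35.9-fold up to 6.5 hpf). Over all genes, 1.53% and 1.62% had one. The paper counts more genes in its second wave alone, from Series 1 and 2, than the 333 found here in Series 2. It describes both sox1 and sox2 as strongly activated at the mid-blastula transition. In Series 2 a run of sox1 from 4.5 to 5.5 hpf narrowly missed the threshold, at 9.96-fold, and a run of sox21 over the same hours reached 7.32-fold. Without the first 4.5 hpf library sox1 passed, at 10.3-fold, where 334 of 21750 genes had an onset. In Ribo-Zero RNA sox2 and sox1 had an onset, both at 5.0 hpf, with rises of 152-fold and 15.5-fold, against 1.57% of all genes. With the intercept of the chance step at -0.5 in place of 0.5, sox1 gained onsets at 4.5 hpf in Series 2 and 5.0 hpf in polyA+ RNA of Series 3, and sox2 began at 4.0 and 5.0 hpf.

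The midpoint time, at which a gene first crosses the level midway between its early median and its later maximum, was found for the genes that rose. In Series 2 it was 5.27 hpf for sox1, 5.54 for sox11, 5.59 for sox21 and 5.76 for sox2, all within a sampling interval of 0.5 h, so that no order can be given to them. Series 3 polyA+ gave 6.39 hpf for sox1, 7.91 for sox11 and 8.16 for sox2, the last 2 with their maximum in the last library. Multiplied by 0.8, the study's correction for the slower development of that clutch, these are 5.12, 6.33 and 6.53. Ribo-Zero RNA gave 6.80 hpf for sox1, 7.17 for sox2 and 7.40 for sox21.

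Genes most like a member were sought among 7102 others with a name entry that was not empty, so rows called unnamed could be among them. Each had over 100 normalised reads and a range of at least 1 on the log2 scale in both sets. Likeness was the mean of 2 Pearson correlations of log2(normalised reads + 10), over 15 time points of Series 2 and 19 of Series 3. These are descriptions of time courses within single clutches. Nearest to sox2 were foxi4.2 (mean r = 0.993), wnt8a (0.992) and fgf8 (0.991), and 235 genes exceeded a mean r of 0.9. For sox1 they were prdm9 (0.966), znf33b (0.961) and sia1 (0.959), with 18 genes above 0.9, and for sox11 gli1.2 (0.978), ets2 (0.976) and slc25a44 (0.971), with 204. For sox7 the nearest were tnfaip8 (0.924), tmem200c (0.920) and ttc9 (0.912), with 11. No gene passed 0.9 for sox3, whose nearest were mgat1 (0.834), rpa3 (0.823) and pigy (0.823), nor for sox4, with ing1 at 0.761, bmp2 at 0.715 and hint3 at 0.715.

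Of 13 other Sox names listed, 10 had a row in each table. In Series 2, 9 passed the filter, with 6 higher, 2 lower and 1 not called, beside 36.8% of all genes higher and 35.2% lower. Their median log2 change was 5.03, against 0.03 over all genes. Genes nearly absent early, such as sox14 with no early count, passed the filter only through late libraries and could only come out higher. The extremes were sox17a, an endoderm factor (10.65 ± 0.65, edgeR adjusted p = 2.7e-07), and sox6 (-2.01 ± 0.32, adjusted p = 2.4e-04). In polyA+ RNA of Series 3, 2 of 6 were higher (sox17a and sox17b.1) and the rest not called, beside 30.3% of all genes higher and 27% lower. The hourly polyA+ libraries gave the same counts, beside 10.4% and 7.26%, and in Ribo-Zero RNA edgeR called 0 of 6, beside 0.616% and 0.139%. There 4 of the 6 had an unadjusted p under 0.05, and DESeq2 called 3, beside 3038 and 1041 of 11520 genes.

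Of 16 names listed as partners of SoxB1 factors and early neural genes, 13 had a row in each table. All 13 were tested in Series 2, where 10 were higher and 3 lower (gmnn, oct60 and zic2). In polyA+ RNA of Series 3, 8 of the 10 tested were higher and 1 lower (oct60), beside the same shares of all genes in both as for the Sox genes. There gmnn and zic2 were among the higher genes, so their direction differed between the clutches. Genes with no early count, such as hesx1 in Series 2 and oct91 in Series 3, passed the filter only through late libraries and could only come out higher. In hourly polyA+ libraries 5 of 9 were higher by edgeR, beside 10.4% of all genes. DESeq2 called oct60 in addition, beside 3263 of 10374 genes. In Ribo-Zero RNA edgeR called 1 of 9 (zic1, higher), beside 0.616% of all genes, and DESeq2 called 6, beside 1041 of 11520 genes. With genes that had no early count set at the lower bound of their change, the median log2 change was 6.99 in Series 2, 6.91 and 2.60 in the 7.5 to 9.0 hpf and hourly polyA+ tests of Series 3, and 1.46 in Ribo-Zero RNA. Both extremes in Series 2 were Oct4-class genes, whose proteins are partners of SoxB1 factors. One was oct91, with 18721 to 28931 normalised reads late against 0 to 3.87 early (log2 change 13.98 ± 0.64, edgeR adjusted p = 1.1e-08). The other was the maternal oct60, with 78.5 to 557 normalised reads late against 4839 to 10930 early (-4.88 ± 0.47, adjusted p = 2.1e-05). In Ribo-Zero RNA oct60 had 2909 to 4195 normalised reads late against 2680 to 2872 early (log2 change 0.43 ± 0.15, adjusted p = 0.129), and in polyA+ RNA of Series 3 it had 5.55 to 85.0 late against 240.4 to 519 early (-2.77 ± 0.52, adjusted p = 4.3e-04). Of the 10 genes of this list tested for a difference in change between library types, oct60 alone was called. As for sox3, its late over early change was lower in polyA+ than in Ribo-Zero RNA, beside 6.18% of all genes lower and 9.17% higher.

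Of 16 partners of SoxF factors, endoderm and vessel genes, all 10 tested in Series 2 and all 8 tested in polyA+ RNA of Series 3 were higher, where 36.8% and 30.3% of all genes were. Genes nearly absent early passed the filter on low counts only through late libraries. Among them were mixer in Series 2 (0 to 0.968 normalised reads early) and nodal6, foxa2 and mixer in Series 3 (no early count). Such genes could only come out higher, so these counts and the medians below do not test a direction. Listed genes low in both windows were not tested. In hourly polyA+ libraries 4 of 6 were higher and in Ribo-Zero RNA 1 of 6 (nodal6), where 10.4% and 0.616% of all genes were. DESeq2 called 6 and 3 of this list there, beside 3263 of 10374 and 1041 of 11520 genes. Medians taken in the same way were 7.40 in Series 2, 6.92 and 6.41 in the polyA+ tests of Series 3, and 4.19 in Ribo-Zero RNA. The extremes in Series 2 were mixer (13.92 ± 2.09, adjusted p = 7.1e-07) and vegt (0.78 ± 0.23, adjusted p = 0.0101). Both encode activators of endoderm genes, and vegt is maternal.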

How the data were processed

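The raw counts were deposited by the authors, who mapped reads with Bowtie 0.12.7 to transcripts of the v7.1 assembly with curated additions and discarded reads that hit more than 1 gene, so reads shared by close paralogues are missing. Deposited signal values are the authors' own scaling of those counts, to 25000000 reads per library without ribosomal reads, and the scaling was recomputed here. Rows that name no gene (3 in the first table, 7 in the second) were left out. Members, gene lists and tests were chosen with earlier results of these data known. The 8 symbols are all in the RefSeq table of the later assembly, from which no coordinates were taken.

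Counts were tested with edgeR 4.0.16 in R 4.3.3 (TMM, quasi-likelihood test, at least 10 counts in at least as many libraries as the smaller group, or 2 of 4 in the Ribo-Zero slope), with DESeq2 1.42.0 as an alternative. SE were computed from the information matrix of each fit. Other alternatives were size factors, library totals, no filter, shifted windows, each library left out and the time point as a block. The run rule used the printed chance step (log10 step = 0.8 log10 level + 0.5). Fits and the run rule were tested on simulated data. A count of 0 was taken to allow 3 counts, and intervals cover counting error only.

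PolyA+ and Ribo-Zero libraries of a time point come from the same RNA, as the study's methods state, and are thus paired. Deviations of same-hour libraries from the mean of their type correlated by 0.0296 to 0.0837 over 8829 genes at 0 to 3 hpf (other pairings -0.132 to 0.0613) and by 0.248 to 0.493 over 8428 genes at 5 to 8 hpf (-0.482 to 0.428). Named genes were all members, the most like genes, and from each list the genes with the largest and smallest called change in Series 2. Python 3.11.15 with pandas, scipy and matplotlib was used for the rest.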

Additional observations from a re-analysis of the deposited data

Results flagged for a closer look

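Of 44 groups of 4 to 10 libraries tested for a member, 4 had a library far from the rest. A rate of 1 in 20, which holds for replicates of 1 condition, would give 2.2. These libraries are successive time points, so 4 cannot be weighed against that number. The 4.0 hpf library of Series 2 held 3987 normalised reads of sox3, against 9171 to 9836 in the other early libraries. The 2.5 hpf library of Series 2 held 2587.5 of sox7, against 2915 to 2941. The 9.0 hpf polyA+ library of Series 3 held 695 of sox4, against 1018 to 1049.5 in the other late libraries. The 1.0 hpf library of Series 1 held 2789 of sox7, against 3793 to 4504.

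A further result is the difference in the late over early change of sox3 between polyA+ and Ribo-Zero RNA of Series 3, which was -1.64 on the log2 scale in a test of the difference itself (edgeR, adjusted p = 0.0192).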

How the results depend on the processing

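Counts of called members moved as follows, and the cause was not tested. In Ribo-Zero RNA, late against early, the 0 calls became 1 with library totals, 4 with DESeq2 and 3 without a filter, and 0 to 5 without single libraries. With library totals 87 genes were called higher and 21 lower of 11520 there. In hourly polyA+ RNA the 4 calls became 0 with the late window at 5.0 to 7.0 hpf and 0 to 4 without single libraries. For the change between library types, 1 became 0 with library totals and 0 to 1 without single libraries. For levels at 0 to 3 hpf, 2 became 1 without a filter and 1 to 3 without single libraries, and at 5 to 8 hpf 2 became 0 with library totals. Over all genes, 8158 calls at 0 to 3 hpf became 8817 without a filter and 7385 to 9484 without single libraries. At 5 to 8 hpf 7512 became 7184 with library totals. For the slope difference, 0 became 1 with library totals and 0 to 3 without single libraries. With library totals 1770 genes were called higher and 574 lower of 11521. Without single libraries slopes gave 0 to 1 in polyA+ and 0 to 2 in Ribo-Zero RNA of Series 3. Onsets in Series 2 went from 1 to 2 with the intercept of -0.5, 3 at a 5-fold threshold and 1 to 2 without single replicates. In polyA+ RNA of Series 3 they became 2 with that intercept and 2 with runs of 2 points. Over all genes, the 333 onsets of Series 2 became 823 with that intercept, 467 at the 5-fold threshold and 330 to 337 without single replicates.

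With the time point as replicate block, 1 member was called in the level at 0 to 3 hpf and 4 at 5 to 8 hpf, beside 7937 of 11521 and 7903 of 11382 genes. Apart from sox4, sox1 and sox2 in these 2 tests, the block changed no call of a member. Over all genes, the slope difference gave 2047 calls and 0 with the block.

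Signs of small, mostly uncalled changes turned. In Series 2 sox4 was -0.23 with library totals, -0.065 without a filter, -0.15 with the window moved and -0.11 to 0.13 without single libraries, and in polyA+ RNA of Series 3 it was 0.12 with the window moved and -0.22 to 0.061 without single libraries. The change difference of sox2 was -0.10 with size factors, -0.061 with library totals, -0.018 with DESeq2 and -0.74 to 1.19 without single libraries, and that of sox7 -0.0062 to 0.52. With library totals, levels were -0.32 for sox4 and -0.51 for sox7 at 0 to 3 hpf, and -0.10 for sox3 and -0.44 for sox4 at 5 to 8 hpf. The sox11 level at 0 to 3 hpf was -0.35 to 0.25 without single libraries. Slopes with library totals were 0.075 for sox7 in Series 1, 0.065 for sox3 and 0.029 for sox4 in polyA+ RNA of Series 3, and 0.021 for the sox3 slope difference. The Ribo-Zero slope of sox7 was -0.0022 to 0.0394 without single libraries. Without the 0.5 and 1.5 hpf libraries, a choice made after seeing the data, the Series 1 slope of sox3 was 0.018. The midpoint time of sox11 in Series 3 polyA+ was 6.86 hpf from the lowest early library.

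Over all genes, Ribo-Zero calls were 87, but 1041 with DESeq2, 869 without a filter, 0 with the window moved and 3 to 3490 without single libraries. Hourly polyA+ calls were 1827, but 769 with library totals, 3263 with DESeq2, 0 with the window moved and 0 to 3753. Change differences were 1870, but 1086 with library totals, 3202 with DESeq2 and 320 to 3696. Slope differences ranged over 0 to 5644 and Ribo-Zero slopes, 584, over 155 to 1924, with 256 by DESeq2, and Series 3 polyA+ slopes over 1729 to 3561. Onsets were 333 and 328, but 823 and 764 with the intercept of -0.5 and 622 with runs of 2 in Series 3. Most time points have 1 library, and 1 count is worth up to 6.48 normalised reads, which limits what low values of sox1, sox21 and sox18 can show.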

Other observations

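The swing of sox3 in Series 1 was shared by few genes, a description chosen after the values were seen. In sox3 the lower of the 0.5 and 1.5 hpf libraries was 1.94 times the highest other library, and 20 genes including it reached that value. Of the other 19, 15 had at least 100 normalised reads in Series 2, and all 15 were lower at 4.0 than at 3.5 hpf there, with a median ratio of 0.663. Over 8730 genes 44.5% were lower and the median ratio was 1.03. The sox3 ratio was 0.435. Between the libraries of a time point these genes did not follow sox3 in the same way. The first was lower than the second in 8 of 15 at 4.5 hpf and 2 of 15 at 6.5 hpf, against 51.8% and 56.3% of all genes, with sox3 ratios of 0.572 and 0.596.

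Low counts of sox1 were seen long before its rise, with 10 counts (11.5 normalised reads) at 0.0 hpf of Series 1 and 11 counts (15.9) at 0.5 hpf in polyA+ RNA of Series 3. Ribo-Zero RNA was not sampled in Series 1 or at 0.5 hpf. It had no sox1 count at the whole hours up to 5.0 hpf, where polyA+ RNA of Series 3 held at most 5.03 normalised reads, at 1.0 hpf. That is below the 5.88 that 0 counts allow in the Ribo-Zero library of 1.0 hpf, so the library types cannot be told apart here.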
